A study of Mus musculus with 4 samples.

Results

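The epidermal growth factor (EGF) family was examined through 9 of the 27827 gene names on the array, 6 ligands (Ereg, Areg, Hbegf, Btc, Tgfa and Nrg1) and 3 receptors (Egfr, Erbb2 and Erbb3). Every probe that carries 1 of these names was taken, 26 of 41174 probes, printed in 62 spots per array. The set was chosen partly because Ereg was already known to be lower in both knockout lines. Differences between genotypes in these genes are therefore given as a description, with no test.

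Expression was measured in 4 lines of mouse embryonic fibroblasts (MEFs), 2 of genotype Ip6k1+/+ and 2 of genotype Ip6k1-/-. Ip6k1 encodes an inositol hexakisphosphate kinase, which makes inositol pyrophosphates. All 4 lines came from E14 embryos of 1 heterozygous mating, 1 embryo per line, were immortalised with SV40 large T antigen, which both genotypes therefore carry, and were thawed, passaged, growing exponentially and collected with trypsin. Total RNA of each line was hybridised to 1 single-colour Agilent array, so that the difference between lines of 1 genotype holds both biological and technical spread.

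EGF family ligands are made as membrane-bound precursors, and many are shed from the cell surface by metalloproteases. They bind receptor tyrosine kinases of the ErbB family, which pair with themselves or with each other and start the Ras-ERK and PI3K-Akt cascades. In fibroblasts, Egfr is the classical receptor through which EGF in serum drives growth and movement, and ERK in turn induces early transcription factors, ligands such as Hbegf, and inhibitors that damp the pathway.

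Values are log2 of the processed signal minus the 75th percentile of the array, so that 0 is the signal at that percentile and a difference of 1 is 2-fold. Arrays were alike in brightness, with that percentile at a signal of 610 to 747, and the extraction software flagged 52.0% to 55.5% of the probes of an array as well above background. Of the 3 Ip6k1 probes, A_51_P213766 and A_52_P413035 were well above background in both control lines and in neither knockout line. The third, A_51_P103718, was measurable in every line, at 2.46 and 2.61 in Ip6k1+/+ and at -1.98 and -1.23 in Ip6k1-/-, 17.5-fold lower but not absent. All 9 fibroblast markers, among them Col1a1, Col1a2 and Vim, were well above background in every line. Of the 6 epithelial markers, Krt18 was well above background in every line, Cdh1 and Krt14 in none, and the rest in some lines only. Xist, which marks an inactive X chromosome, was well above background in Ip6k1+/+ line 1 and Ip6k1-/- line 2 only, so that each genotype held 1 line with Xist and 1 without. In such bulk samples fewer cells of a type and less RNA per cell cannot be told apart.

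Of the 26 probes, 17 were well above background in all 4 lines, 3 in some lines and 6 in none. The 17 probes covered 7 of the 9 genes, and Btc and Tgfa had no probe above background in both lines of a genotype. Both Ip6k1-/- lines were below both Ip6k1+/+ lines for 10 of the 17 probes, were above them for 1, and overlapped for 6. Over all 21572 probes tested, the shares were 12.6% below and 18.8% above. Since several probes report the same gene and the genotype contrast was used to choose the set, nothing is read from these counts. The median difference of the 17 probes, Ip6k1-/- minus Ip6k1+/+, was -0.29. A 2-fold rule, which asks for a mean difference of 1 or more and for both knockout lines to lie 0.9 or more to the same side of the control mean, was passed by 5 probes, all lower in the knockout. Over all probes tested, 1.87% passed the rule as lower and 1.06% as higher. These 5 were 1 of the 2 Ereg probes and 4 of the 6 Egfr probes. Several lay close to the limits of the rule: with normexp, another background correction, 1 of the 5 still passed (Egfr A_51_P392242), and with arrays centred on their median 3 did. Without Ip6k1+/+ line 1, 2 of the 5 still passed, and without Ip6k1-/- line 1, 2 did.

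**Figure D1:**
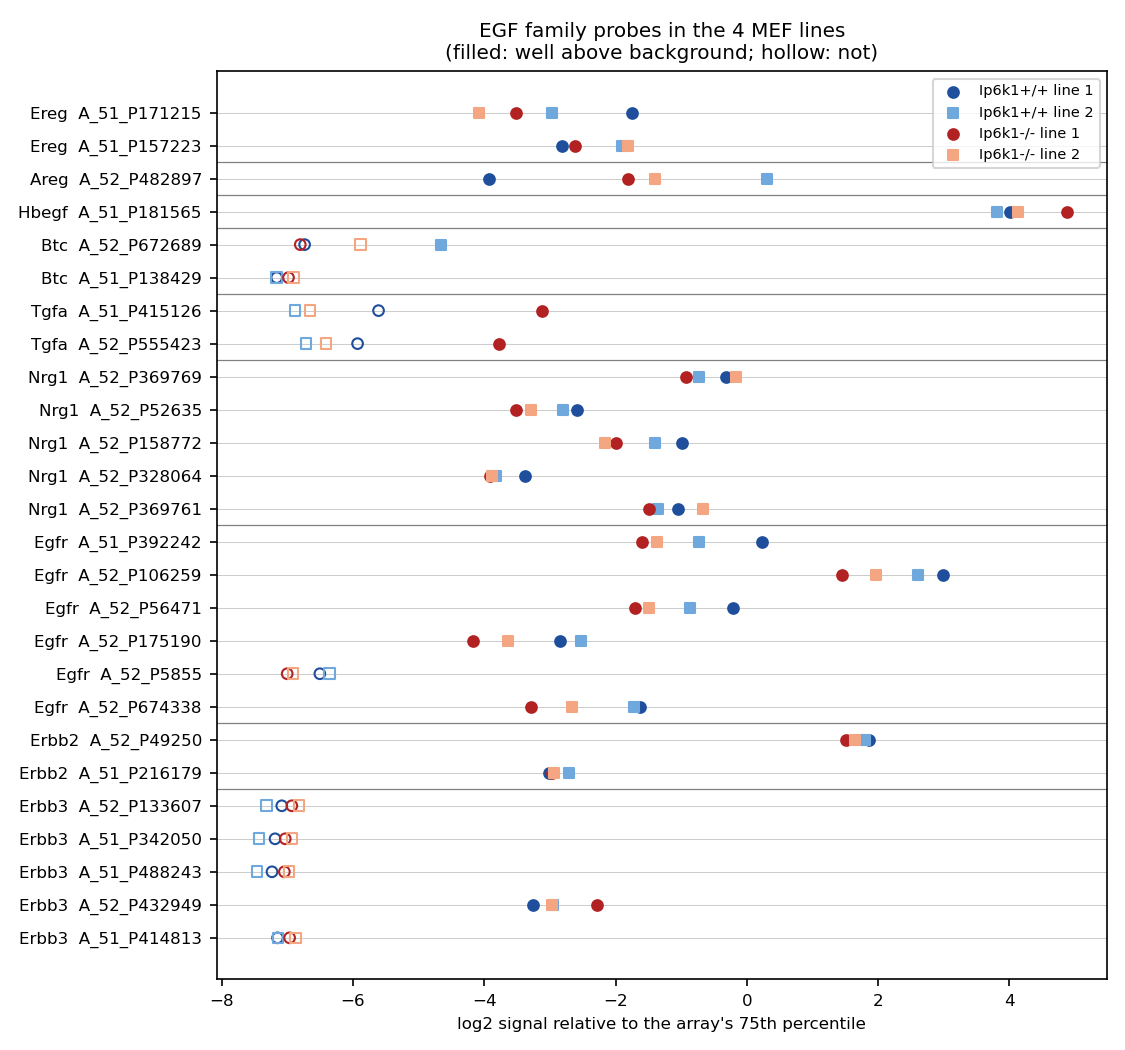
Log2 signal relative to the array's 75th percentile (x axis) for the 26 probes of the 9 genes (y axis) in the 4 MEF lines. Each point is 1 line, filled where the probe was well above background and hollow where it was not. For the 5 Egfr probes with filled points, both Ip6k1-/- lines lie left of both Ip6k1+/+ lines, whereas Areg spreads from -3.92 to 0.31 within the Ip6k1+/+ genotype alone.

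Ereg encodes epiregulin, a ligand that binds Egfr and ErbB4 and is released in growth and repair. On the array 2 probes carry its name, shown here by their first 30 bases because they gave different results. The first matches the RefSeq transcript NM_007950 and lies at chr5:91521659-91521720 on the plus strand of mm9, the build named in the array files. The second carries the accession AK019057 and lies on the opposite strand at chr5:91480914-91480973, 40686 bases away from the first. Whether the second reports Ereg could not be settled here.
A_51_P171215: acacagatttcccattatattgtgtataca
A_51_P157223: tgactttgtactggtcttccttagttcccc

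With A_51_P171215, Ereg was at -1.75 and -2.97 in the Ip6k1+/+ lines and at -3.51 and -4.07 in the Ip6k1-/- lines. Both knockout lines were thus below both controls, but the nearest pair was only 0.54 apart, while the control lines themselves differed by 1.21. The difference between genotypes was -1.43 (standard error 0.53, n = 2 lines each), 2.70-fold lower in the knockout. It rested in part on Ip6k1+/+ line 1, without which it was -0.82, and with normexp it was -0.61. With A_51_P157223, in contrast, the lines were at -2.81 and -1.90 in Ip6k1+/+ and at -2.62 and -1.81 in Ip6k1-/-. The genotypes overlapped on this probe and differed by 0.14 (standard error 0.49). The lower Ereg signal in the knockout lines is therefore a result of the probe for the RefSeq transcript, and the probe named for Ereg on the other strand did not share it.

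The profile of each probe named for Ereg over the 4 lines was set against those of other genes. The measure was the root mean square difference of log2 values centred on their own mean. Candidates were 14116 gene names, 1 probe each, well above background in both Ip6k1+/+ lines. Ereg itself was among them and was left out of the ranking. For A_51_P157223, the brighter probe, the nearest included Tmem138, Angel1, Pml and Prkcbp1, at distances of 0.03 to 0.05. For A_51_P171215, added after its values were seen, the nearest were Nfkbie, AK037854, Il4i1, Pacsin1 and Itpkc, at 0.07 to 0.15. Of these, AK037854, Il4i1 and Pacsin1 were well above background in the Ip6k1+/+ lines alone. Since this probe was lower in both knockout lines, the profiles nearest to it are lower there by the way they were picked. Nfkbie, an inhibitor of NF-kappaB, was at 1.05 and -0.18 in Ip6k1+/+ and at -0.61 and -1.11 in Ip6k1-/-. Itpkc encodes a kinase of inositol trisphosphate, and it was at 1.86 and 0.48 in Ip6k1+/+ and at 0.22 and -0.21 in Ip6k1-/-. With 4 lines, such likeness describes these arrays only.

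Areg encodes amphiregulin, a ligand of Egfr alone. Its gene lies beside Ereg, in a cluster on chromosome 5 that also holds Epgn and Btc. The 1 probe, at chr5:91570090-91570149 on the plus strand, is shown because it gave the widest spread of the set within a genotype.
A_52_P482897: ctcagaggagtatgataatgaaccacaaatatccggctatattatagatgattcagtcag

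Areg was at -3.92 in Ip6k1+/+ line 1 and at 0.31 in Ip6k1+/+ line 2, an 18.8-fold difference between lines of the same genotype. The Ip6k1-/- lines, at -1.81 and -1.40, both fell in the gap between them. The genotypes differed by 0.20 with a standard error of 1.41, and the sign depended on 1 control line. Without Ip6k1+/+ line 1 the difference was -1.92, without Ip6k1+/+ line 2 it was 2.31, and with normexp it was -0.24. The neighbours Ereg and Areg did not share their order over the lines, since Ip6k1+/+ line 1 was the highest of the 4 for Ereg (A_51_P171215) and the lowest for Areg. Ip6k1+/+ line 2, the highest line for Areg, was also the highest for the summed signal of the 6 epithelial markers. The sum was 3.15 times the 75th percentile there, against 0.51 to 1.59 in the other 3 lines. Most of it in every line was Krt18 alone, at a log2 value of 1.56 in that line and -1.35 to 0.55 in the others. Krt18 was the only member above background in every line, and Cdh1 and Krt14 were above background in none. The part of this difference in the Areg values was not tested.

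Hbegf encodes heparin-binding EGF-like growth factor, a ligand of Egfr and ErbB4 that ERK signalling also induces. Its probe A_51_P181565 lies at chr18:36664738-36664797. Hbegf was at 4.01 and 3.81 in the Ip6k1+/+ lines and at 4.87 and 4.14 in the Ip6k1-/- lines. Among the 17 probes above background in all lines, this was the single one for which both knockout lines were above both controls. The lower knockout line was 0.13 above the higher control, less than the 0.20 between the controls. The difference of 0.60 (standard error 0.30), 1.51-fold, came mostly from Ip6k1-/- line 1, since without that line it was 0.23. Hbegf and the RefSeq probe of Ereg thus had opposite signs in the same cells.

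Btc encodes betacellulin and Tgfa transforming growth factor alpha, both ligands of Egfr. Btc was well above background on 1 of its 2 probes in Ip6k1+/+ line 2, at -4.65, and nowhere else. Tgfa was well above background on both of its probes in Ip6k1-/- line 1, and in no other line. On A_51_P415126, printed in 10 spots, Tgfa was at -3.11 in that line, while the other 3 lines lay between -6.88 and -5.61 and were not well above background. On A_52_P555423 it was at -3.77 in the same line and between -6.72 and -5.93 in the others. Probes of different sequence thus picked out the same line. Set against the dimmest detectable signal of the control arrays, the mean of both Ip6k1-/- lines was 1.23-fold and 1.07-fold higher. This mean takes in the values of Ip6k1-/- line 2, which were not well above background, so these folds are not lower bounds. Ip6k1-/- line 1 was also the line with the highest Hbegf.

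Nrg1 encodes neuregulin 1, a ligand of ErbB3 and ErbB4 that is made in many isoforms with different starts and ends. Its 5 probes lie on the minus strand of chromosome 8, and all were well above background in every line. A probe within the EGF-like part and a probe toward the other end of the gene are shown, the first whole and the second by its first 30 bases, because they differed in how the genotypes compared. The first lies at chr8:32959791-32959850, and the second, with the accession AK031289, lies downstream of it at chr8:32925808-32925867.
A_52_P369769: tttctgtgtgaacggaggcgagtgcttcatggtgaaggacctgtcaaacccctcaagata
A_52_P158772: acaactatgtttcctgggtcttaaatcaaa

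With A_52_P369769, Nrg1 was at -0.32 and -0.72 in Ip6k1+/+ and at -0.93 and -0.16 in Ip6k1-/-, a difference of -0.02. With A_52_P158772, it was at -0.98 and -1.39 in Ip6k1+/+ and at -2.00 and -2.16 in Ip6k1-/-. Here the lines did not overlap, and the difference was -0.89 (standard error 0.31), 1.85-fold lower in the knockout. A_52_P52635, the probe next to it, was at -2.59 and -2.80 against -3.52 and -3.29, with a difference of -0.71 (standard error 0.32). The remaining A_52_P369761 and A_52_P328064, which lie between these, differed by 0.12 and -0.29.

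Set against each other within each line, where scaling between arrays cancels, A_52_P158772 minus A_52_P369769 was -0.67 in both control lines, against -1.07 and -1.99 in Ip6k1-/-. Thus the signal at the downstream probe was lower relative to the EGF-like probe in both knockout lines. A_52_P52635 minus A_52_P369769 behaved alike, at -2.28 and -2.08 in Ip6k1+/+ and at -2.59 and -3.13 in Ip6k1-/-. None of the 5 Nrg1 probes passed the 2-fold rule, and those that are dim moved with the background correction: with normexp, A_52_P52635 differed by -0.35.

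Egfr encodes the EGF receptor, which binds all of the ligands above except Nrg1. Of its 6 probes, 5 were well above background in every line, and A_52_P5855, with the accession AK049452, in none. The 5 lie at different places on the plus strand of chromosome 11 and carry the accessions of transcript variants 1 and 2 and of AK033431. A_52_P56471, at chr11:16783545-16783604 and named for variant 2, and the first 30 bases of A_52_P106259, at chr11:16813815-16813874 and named for variant 1, are shown, because these separate sequences gave nearly the same difference.
A_52_P56471: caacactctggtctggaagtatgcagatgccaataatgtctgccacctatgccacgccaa
A_52_P106259: gttgcaagccactctaactgtagcaatgaa

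On all 5 probes both Ip6k1-/- lines were below both Ip6k1+/+ lines. A_52_P106259 was at 2.98 and 2.60 in Ip6k1+/+ and at 1.45 and 1.97 in Ip6k1-/-. Its difference was -1.08 (standard error 0.28), 2.12-fold lower in the knockout. It was printed in 10 spots, whose standard deviation was 0.04 on each array, far less than the spread between lines of 1 genotype (SD 0.27 and 0.36, n = 2 each). It was the Egfr probe that missed the 2-fold rule, since Ip6k1-/- line 2 was 0.82 below the Ip6k1+/+ mean.

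A_52_P56471 was at -0.21 and -0.87 in Ip6k1+/+ and at -1.71 and -1.50 in Ip6k1-/-, a difference of -1.07 (standard error 0.34). A_51_P392242, also named for variant 2 and printed in 10 spots, was at 0.23 and -0.73 against -1.59 and -1.37, a difference of -1.23 (standard error 0.41). Both probes named for variant 2 set Ip6k1+/+ line 1 above line 2, as did those named for variant 1. Without Ip6k1+/+ line 1 the difference of A_51_P392242 was -0.75.

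A_52_P674338, named for variant 1, was at -1.63 and -1.72 in Ip6k1+/+ and at -3.28 and -2.66 in Ip6k1-/-, a difference of -1.30 (standard error 0.35). A_52_P175190, with the accession AK033431, was at -2.85 and -2.52 against -4.16 and -3.64, a difference of -1.22 (standard error 0.37). These are the dimmest of the 5, and with normexp they differed by -0.83 and -0.51. Over the 5 probes the signal was 2.09-fold to 2.46-fold lower in the knockout, and Ip6k1-/- line 1 was the lowest of the 4 lines on each of them. The probes named for variants 1 and 2 kept their distance: A_52_P106259 minus A_51_P392242 was 2.75 and 3.33 in Ip6k1+/+ and 3.05 and 3.34 in Ip6k1-/-, which overlapped. The 5 probes report 1 gene in the same 4 RNA samples, so their likeness shows that the signal does not hang on 1 probe sequence, and adds no further lines.

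Some cell type markers also differed between genotypes without overlap. Of the 9 fibroblast markers, both Ip6k1-/- lines were below both Ip6k1+/+ lines for 3 (Col3a1, Fn1 and Pdgfrb), and above them for 0. Over all genes tested, the shares were 13.2% below and 18.1% above. The median difference of the 9 was 0.05, near the 0.04 of all genes tested. Pdgfrb, a receptor for platelet-derived growth factor, was at 4.67 and 4.45 in Ip6k1+/+ and at 3.34 and 3.39 in Ip6k1-/-, a difference of -1.20 that passed the 2-fold rule (limma adjusted p = 0.795). The summed signal of the 9 was 571 and 544 times the 75th percentile in Ip6k1+/+ and 532 and 494 in Ip6k1-/-, with Col1a1, Col1a2 and S100a4 saturated on every array. Of the 4 endothelial markers, Kdr alone was above background, at -3.66 and -3.99 in Ip6k1+/+ and at -2.94 and -1.59 in Ip6k1-/-, while Pecam1, Cdh5 and Tek were above it in no line. The part of these marker differences in the Egfr and Ereg values was not tested.

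**Figure D2:**
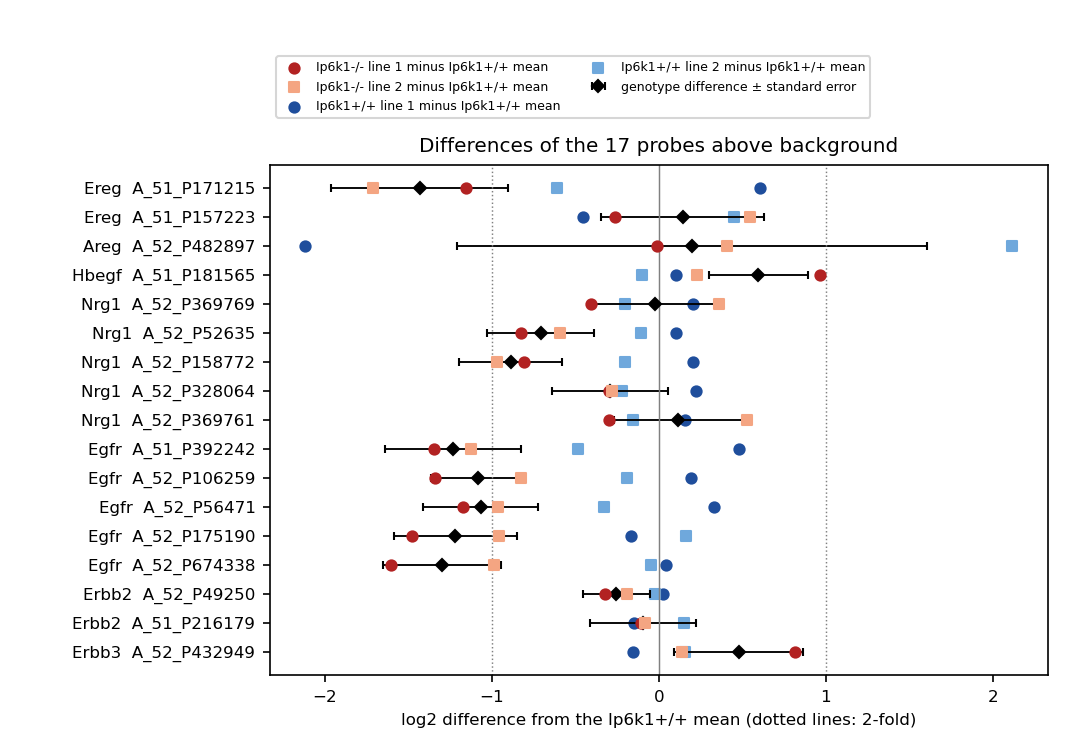
Log2 difference from the Ip6k1+/+ mean (x axis) for the 17 probes well above background in all 4 lines (y axis). Coloured points are single lines, black diamonds the difference between genotypes with its standard error, and dotted lines mark 2-fold. The Egfr diamonds lie between -1.30 and -1.07, the 2 Ereg probes are at -1.43 and 0.14, and the error bar of Areg spans 0.

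Erbb2 encodes a receptor with no known ligand of its own, which pairs with the other ErbB receptors. A_52_P49250, printed in 10 spots, was at 1.85 and 1.80 in Ip6k1+/+ and at 1.51 and 1.64 in Ip6k1-/-. The lines did not overlap, and the difference was -0.25 (standard error 0.20), 1.19-fold lower in the knockout. A_51_P216179, at chr11:98295824-98295883 on the plus strand, was at -3.01 and -2.71 in Ip6k1+/+ and at -2.97 and -2.94 in Ip6k1-/-, which overlapped and differed by -0.09 (standard error 0.32). Erbb2 thus differed by far less than 2-fold on both probes, in the same RNA samples in which Egfr differed by more than 2-fold.

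Erbb3 encodes a receptor for neuregulins whose own kinase is weak. Of its 5 probes, the 4 that carry its RefSeq accession NM_010153 were well above background in no line. A_52_P432949, with the accession BC049279 and at chr10:128004749-128004808, was well above background in all 4 lines, at -3.26 and -2.95 in Ip6k1+/+ and at -2.29 and -2.97 in Ip6k1-/-. The lines overlapped, with a difference of 0.48 (standard error 0.39). Whether these lines express Erbb3 is thus answered differently by its probes. Of the other members of the family, Erbb4, Nrg3 and Nrg4 were well above background in no line, and Egf and Epgn in Ip6k1+/+ line 2 alone, at -4.24 and -4.78.

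The other genes of the pathway were then compared to see whether the steps that release the ligands, relay their signal, damp it or respond to it differed between genotypes. Of 67 genes listed, 65 were on the array and 58 were tested, each by its brightest probe. None passed the limma test across all probes with Benjamini-Hochberg adjustment (lowest adjusted p = 0.993). Without adjustment, 3 were lower (Lrig3, Spry2 and Egr2) and 2 higher (Nras and Etv4) at p under 0.05, 5 of 58, against 2.33% and 1.35% of all 14334 genes tested. The adjusted test called 0.00698% of all genes, and 0.0139% of all probes, as lower, and 0% as higher. The 2-fold rule called 2 of the 58 as lower, Egr2 and Egr3, and 0 as higher, against 2.09% and 1.07% of all genes. Both Ip6k1-/- lines were below both Ip6k1+/+ lines for 10 genes and above them for 11, against 13.2% and 18.1% of all genes. The median difference was -0.03, and that of all genes tested was 0.04.

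The 6 genes of ligand release had a median difference of -0.02, and none was called. Both Ip6k1-/- lines were above both controls for 2 and below for 1, against 18.1% and 13.2% of all genes. The 2 were Adam12, whose knockout lines were 1.81 and 0.37 above the control mean, and Adam17, with a difference of 0.31 (standard error 0.21). Adam9, which encodes a membrane metalloprotease, was at 4.15 and 3.85 in Ip6k1+/+ and at 3.70 and 4.10 in Ip6k1-/-. Rhbdf1, which encodes a rhomboid-like protein that acts on the sheddase Adam17, was at 1.76 and 1.85 against 1.69 and 1.64. The 24 genes of signal relay had a median of 0.05. Ptpn11, the phosphatase Shp2 that links receptors to Ras, differed by 0.19 (standard error 0.19), and the kinase gene Akt1 by 0.36 (standard error 0.27).

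The 11 inhibitors tested had a median of -0.18. Dusp6, a phosphatase gene that ERK induces and that acts on ERK, was at 4.16 and 4.21 in Ip6k1+/+ and at 3.67 and 4.38 in Ip6k1-/-, which overlapped. Lrig3, of a family of membrane proteins that act on ErbB receptors, was at 3.88 and 4.42 in Ip6k1+/+ and at 3.46 and 3.04 in Ip6k1-/-. Its difference of -0.90 (standard error 0.28) had an adjusted p of 0.993 in limma.

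Some inhibitors differed far more between lines of 1 genotype than between genotypes. Those named here were chosen after their values were seen. Spry1, an inhibitor of Ras-ERK signalling, was at -1.73 and 2.25 in the Ip6k1+/+ lines and at -3.75 and 2.60 in the Ip6k1-/- lines, a 15.8-fold and an 81.1-fold difference between lines of the same genotype. Dusp4, an ERK phosphatase gene, was at -2.77 and 1.01 in Ip6k1+/+, and in Ip6k1-/- it was at 1.39 in line 2 and not well above background in line 1, at least 70.7-fold lower. Its other probe gave 9.27-fold and at least 51.6-fold. Lrig1, which restrains ErbB receptors, was at 0.74 and 3.39 in Ip6k1+/+ and at 1.70 and 3.16 in Ip6k1-/-.

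All 3 genes were thus high in Ip6k1+/+ line 2 and Ip6k1-/- line 2. Agreement by line number was not particular to them. Over all 21572 probes tested, the deviations of line 1 from the genotype mean correlated between the genotypes (r = 0.48). Of all 14334 genes, 4.09% differed by more than 2 (log2) between the Ip6k1+/+ lines and 4.71% between the Ip6k1-/- lines. Of the 3 neuronal markers, Snap25 and Syp were above background in no line. The third, Tubb3, was also higher in line 2 of each genotype, at 1.38 and 1.68 against -0.03 and -0.0025 in line 1. So was the epithelial gene Krt18, at 1.56 and 0.55 against -0.66 and -1.35. The part of these differences in the values of the inhibitors was not tested. Areg shared the order of the Ip6k1+/+ lines with them (difference of -4.23 between lines 1 and 2), but in the Ip6k1-/- lines it differed by -0.42.

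**Figure D3:**
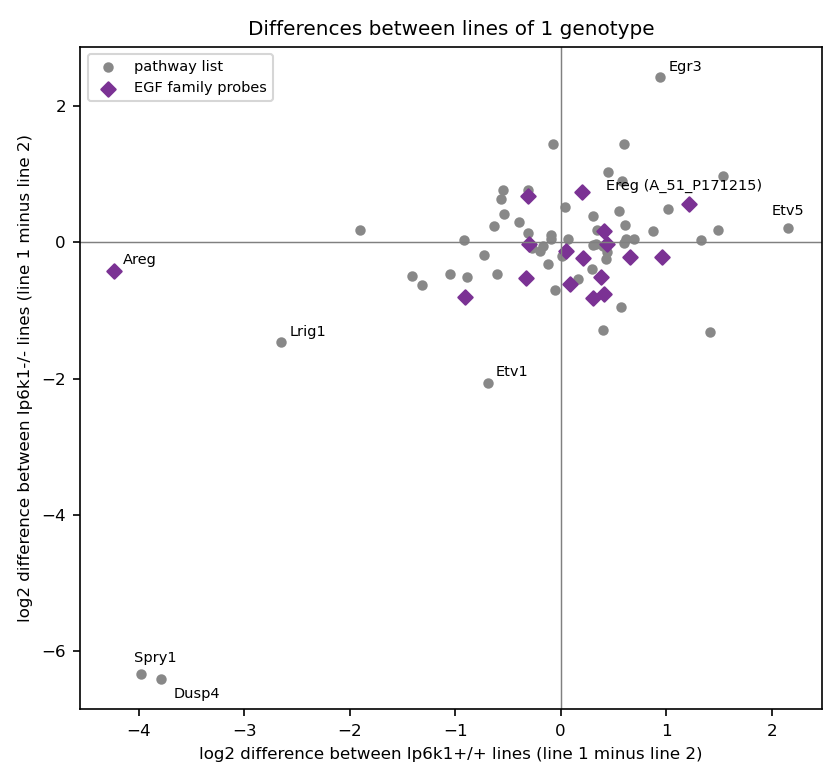
Log2 difference between lines of 1 genotype, line 1 minus line 2, for Ip6k1+/+ (x axis) and Ip6k1-/- (y axis). Grey points are the 58 pathway genes and purple diamonds the 17 EGF family probes. Spry1 and Dusp4 lie apart at the lower left, Areg differed by -4.23 between the Ip6k1+/+ lines, and the Ereg probe A_51_P171215 by 1.21.

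The 17 targets induced by ERK had the lowest median of the roles, -0.33. Egr2, an early transcription factor gene, was at 2.42 and 1.85 in Ip6k1+/+ and at -0.49 and 0.47 in Ip6k1-/-. Its difference was -2.15 (standard error 0.42), 4.44-fold lower in the knockout, with both knockout lines below both controls, but the adjusted p in limma was 0.993. Its probe was printed in 10 spots, with a standard deviation of at most 0.06 on an array. Egr3, of the same family, was at -1.19 and -2.13 in Ip6k1+/+, at -2.79 in Ip6k1-/- line 1 and at -5.22 in Ip6k1-/- line 2, where it was not well above background. Its difference of -2.34 (standard error 0.90) became -1.13 without Ip6k1-/- line 2 and -1.19 with normexp, and its other probe was above background in no line. Egr1 was at 5.18 and 4.48 against 4.22 and 4.17, a difference of -0.63 (standard error 0.28). Junb, saturated on 1 array, was at 7.06 and 6.46 against 6.80 and 5.35, which overlapped. The 17 targets did not share a direction. Both Ip6k1-/- lines were below both controls for 4 and above them for 2, against 13.2% and 18.1% of all genes. The 2 above were Etv4, of the Ets family, higher by 0.96, and Fos, higher by 0.33.

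**Figure D4:**
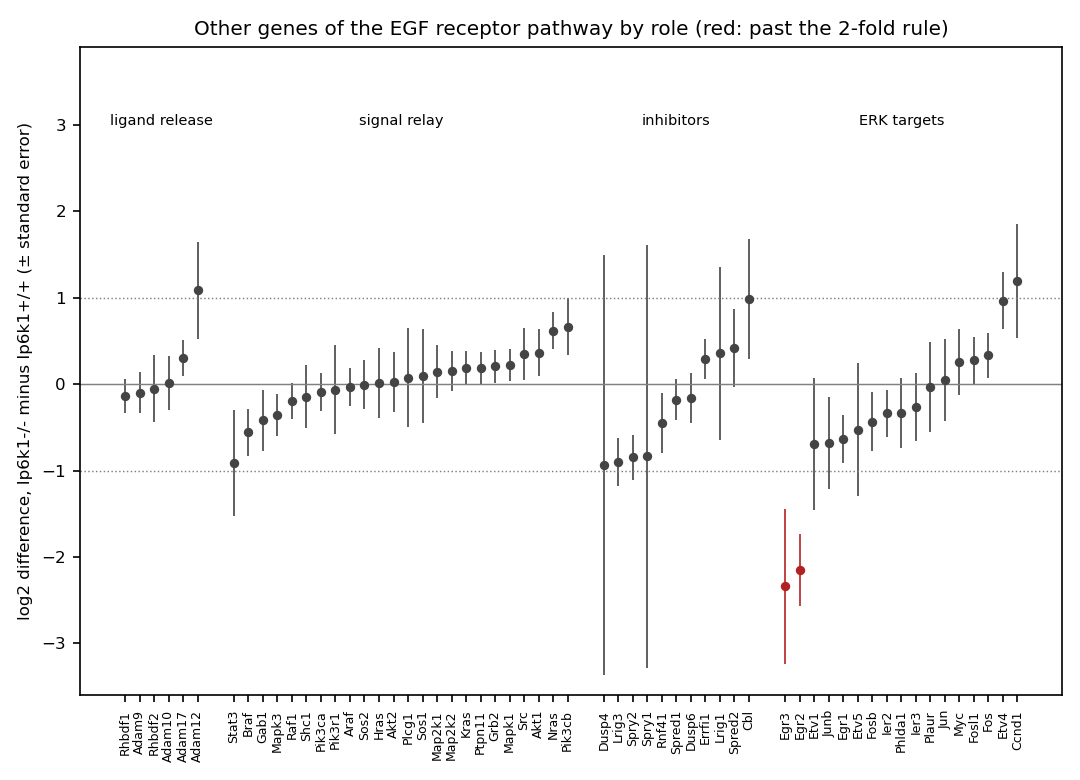
Log2 difference between genotypes, Ip6k1-/- minus Ip6k1+/+, with its standard error (y axis) for the 58 other pathway genes tested, grouped by role and sorted within each (x axis). Dotted lines mark 2-fold, and red points, Egr3 at -2.34 and Egr2 at -2.15, passed the 2-fold rule.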

How the data were processed

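Gene expression was measured on 4 single-colour Agilent arrays, all on 1 slide and scanned on 1 day, so that slide and scan cannot separate the genotypes. The authors deposited spot intensity on a linear scale from Feature Extraction 10.5.1.1, after background correction by that software, and a table of log2 values shifted to the 75th percentile, which matched the ones used here up to 1 offset per array (median deviation 0.0025 around it). From the intensity, log2 minus the 75th percentile of non-control spots was taken, outlier spots were left out (96 to 133 per array) and spots of a probe were averaged. Tests took the probes that were well above background in both lines of 1 genotype or of both (21572 of 41174) with limma 3.58.1 (R 4.3.3, variance trend, Benjamini-Hochberg adjustment, call at 0.05). The test was also run on simulated data with noise drawn independently for each probe and array. That run does not cover deviations shared between lines, and nothing is read from it here. P-values measure the spread between these lines, and the number of arrays limits the precision.

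Standard errors of member probes come from the same fit. Genes named are the members, Ip6k1, pathway genes past a call, the brightest 2 per role and the 5 profiles nearest to the brighter Ereg probe, of which 1 is not reported here. Adam12, Adam17, Spry1, Spry2, Nras, Etv4, Fos, Dusp4, Lrig1, the profiles nearest to the other Ereg probe, and markers with values were named after their values were seen. The members and gene lists were chosen with earlier results of these data known. Sequences are those of the array's probes as printed in the deposited files, with mm9 positions from the same files; exon or UTR placement was not analysed here. The order of the ligand genes on chromosome 5 was taken from the RefSeq gene table of GRCm38.p6.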

Additional observations from a re-analysis of the deposited data

How the results depend on the processing

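The limma test called 3 probes as lower, and called 0 with normexp, quantile normalization, a floor on dim values, the methods' t-test or any line left out (0 to 0), and 1 with no filter or with a filter on all 4 arrays. The 2-fold rule called 404 probes as lower and 229 as higher. These became 190 and 55 with normexp, 949 and 404 with no filter, 241 and 122 with the filter on all 4 arrays, and 886 and 397 by the mean difference alone. With each line left out in turn they ranged from 864 to 1339 and from 271 to 1324. In the pathway list, 2 genes passed as lower. It was 1 with normexp, where Egr3 was lost, 1 with the filter on all 4 arrays, and 2 to 5 with a line left out. None passed as higher, but 1 did with quantile normalization, 1 with median centring, 2 by the mean difference alone, and 1 to 5 with a line left out. Of the member probes, 5 passed as lower, and 1 did with normexp, 3 with median centring and 2 to 6 with a line left out (6 by the mean difference alone, added after seeing the data). None passed as higher, and 0 to 2 did with a line left out. The cause was not tested.

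The replicate number as a block (the lines share only a number; r = 0.48 between their deviations over 21572 probes) left 3 probes and 0 pathway genes called by limma, and 9 pathway genes in place of 5 at an unadjusted p under 0.05. The methods' t-test gave 1. For member probes and named pathway genes, the 5 settings that give new values (normexp, quantile normalization, median centring, the deposited log2 values and the floor) gave 135 differences. Of these, 5 moved by more than the spread between lines, all of dim probes under normexp, and 2 changed sign. Leaving out a line turned 13 signs. With 2 lines per genotype, no difference here has a check against a further line, and dim probes are the least certain.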
